A study of Homo sapiens with 28 samples.

Results

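Chromatin accessibility was described at the loci of 10 BCL2 family genes: BCL2, MCL1, BCL2L1, BCL2A1, BCL2L11, BMF, PMAIP1, BBC3, BAX and BAK1. The members were every region of the deposited count table that the authors' annotation assigned to the transcription start of one of these genes, which gave 51 of 154985 regions. Of the 51 regions, 20 lay within 2.5 kb of the assigned start and are called promoter regions here, and 31 lay farther away and are called distal. Distances are from the start to which the annotation assigned the region. That start can be another start of the gene than that of its main promoter. The main promoter is the region that overlaps a start of the gene, and of several such regions the one farthest upstream. The assay was ATAC-seq, which tags open DNA with a transposase, so that the reads over a region measure how open it was. A total of 22 untreated human multiple myeloma cell lines were assayed: H1112, Karpas620, KMS11, KMS12BM, KMS12PE, KMS18, KMS20, KMS21BM, KMS26, KMS27, KMS28, KMS34, L363, LP1, MM1S, OCIMY5, OPM2, PCM6, PE1, RPMI8226, U266 and XG-6. Of these, 6 lines (Karpas620, KMS27, L363, MM1S, OPM2 and RPMI8226) were also assayed after 10 µM lenalidomide at day 3. Each line was assayed once per condition, so the line was the unit of every comparison and no error between libraries of a line is known. All lines are established cultures of malignant plasma cells, and KMS12BM and KMS12PE were established from a single patient.

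The BCL2 family decides whether a cell opens its mitochondrial outer membrane and dies by apoptosis. BCL2, MCL1, BCL2L1 (which encodes BCL-XL) and BCL2A1 hold death back, BAX and BAK1 form the pores, and the BH3-only proteins BCL2L11 (BIM), BMF, PMAIP1 (NOXA) and BBC3 (PUMA) block the guardians or activate the pore formers. Plasma cells and myeloma cells are known for their dependence on MCL1, and a subset of myelomas depends on BCL2 and responds to its inhibitor venetoclax. Lenalidomide binds the ubiquitin ligase substrate receptor cereblon and causes the loss of the transcription factors IKZF1 and IKZF3.

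Untreated libraries held between 1599857 and 5564534 counts in regions and lenalidomide libraries between 2168680 and 4248017. Accessibility is given as CPM, the share of the library's counts in regions, scaled so that each library sums to 1000000, on a log scale as log2(CPM + 1), and intervals for a single library are 95% Wilson intervals that cover counting error only. A region is called in a line where the authors' table gave that line at least 1 peak of its own there. The start regions of plasma cell markers (IRF4, PRDM1, XBP1, SDC1, TNFRSF17, CD38 and MZB1) were called in 20 or more lines for 5 of 7 genes and had median levels between 17.1 and 73.4 CPM. Among B cell markers, BACH2 had a median of 14.2 CPM and was called in 17 lines, and PAX5 and MS4A1 had medians of 3.44 and 1.08 CPM and reached 37.4 and 26.8 in single lines. Markers of T cells, monocytes and epithelial cells had medians of at most 7.44 CPM, although epithelial EPCAM reached 66.8 CPM in its highest line. A lower level in a line cannot be told apart from fewer copies of the locus or fewer cells with the locus open, since copy number was not analysed here.

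The death-inhibiting genes MCL1 and BCL2L1 and the BH3-only genes PMAIP1 and BMF had the most open main promoters, and BCL2A1 had the least open one. Levels between genes were compared per kilobase of region, as the promoter regions ran from 611 to 1623 bases. Median levels over the 22 lines were 48.1 CPM per kb for BMF, 47.8 for MCL1, 45.6 for PMAIP1, 41.1 for BCL2L1 and 33.2 for BCL2L11. They were 24.1 CPM per kb for BAK1, 23.9 for BCL2, 17.7 for BBC3, 12.8 for BAX and 1.76 for BCL2A1. The order holds for the main promoters alone. At BCL2, a promoter region 1.59 kb past the main one had 54.3 CPM per kb and that over an internal start 48.1. At BBC3, a promoter region 3.24 kb upstream of the main one had 28.2 CPM per kb. Neighbours in this order changed places from line to line: BMF was above MCL1 in 13 of 22 lines, and BAK1 was above BCL2 in 8. BCL2A1 was the exception, with BAX above it in 20 of 22 lines. Among all 41127 promoter regions of the table, the mean CPM of the PMAIP1 promoter stood at percentile 96.4, that of BCL2L1 at 95.4 and that of MCL1 at 92.7, against 34.1 for BCL2A1.

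**Figure D1:**
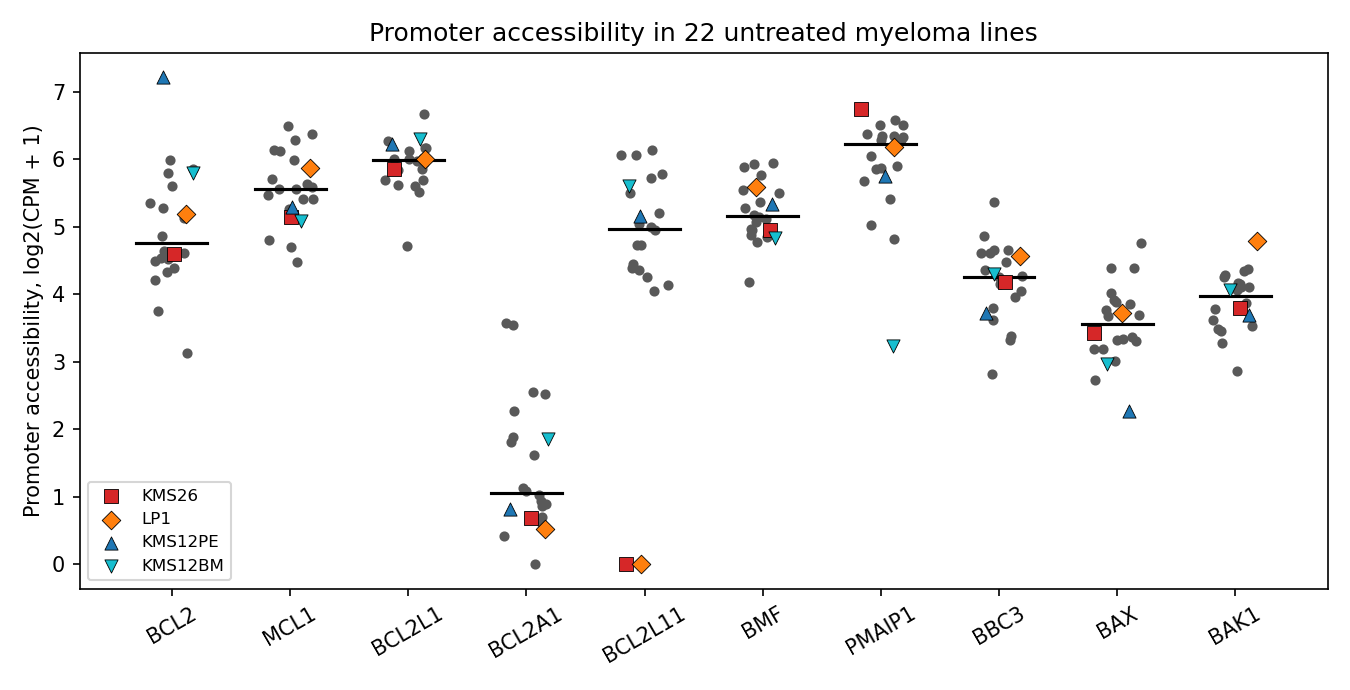
Promoter accessibility of the 10 genes in 22 untreated lines, as log2(CPM + 1) on the vertical axis, with 1 point per line, black bars at the medians and 4 lines marked by colour. KMS26 and LP1 lie at 0 for BCL2L11, KMS12PE lies above all other lines for BCL2 and KMS12BM lies below all others for PMAIP1.

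Of the 51 regions, 5 were called in all 22 lines: the promoters of MCL1, BCL2L1 and BMF, a region 8.53 kb downstream of the BAK1 start and a region 11.3 kb upstream of its assigned BBC3 start. These were 3 of the 20 promoter regions (15%), against 13.4% of all promoter regions of the table, and 2 of the 31 distal regions (6.45%), against 0.575% of all distal regions. At the other end, 15 of the 31 distal regions (48.4%) were called in no line or in 1 line, close to the 49.7% of all distal regions. Promoters of different members varied largely on their own: over the 45 pairs of genes, Spearman correlations of promoter CPM across the 22 lines ran from -0.41 to 0.49 with a median of 0.08. The strongest positive values joined MCL1 and BAX (0.494) and BCL2 and BCL2L11 (0.488). The strongest negative value joined PMAIP1 and BCL2A1 (-0.41). These are descriptions over 22 lines that share the scaling by library total.

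MCL1, the short-lived guardian on which plasma cells rely, had 1 region, at chr1:150551674-150552636 (GRCh37) over its promoter and first exon. It was called in all 22 lines and ran from 21.3 CPM in PE1 through a median of 46.0 to 88.7 in OPM2. KMS11 (81.8 CPM), L363 (77.0) and KMS20 (69.6) followed OPM2, and OCIMY5 (25.1) was next to PE1 at the low end. The SD of log2(CPM + 1) was 0.54, below the median SD of 0.645 among regions of similar mean, taken as 1 of 10 equal groups of all regions by mean CPM. The level followed that of its surroundings. The 134 neighbouring regions within 2 Mb were summarised in each line as the median of their CPM over the median line, and this neighbour ratio ran from 0.611 in PCM6 to 1.72 in KMS20. The Spearman correlation of the MCL1 promoter with the neighbour ratio was 0.87 over 22 lines, the highest of the 10 members, and dividing by the ratio lowered the SD of log2(CPM + 1) from 0.54 to 0.31.

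BCL2L1 also had a single assigned region, at chr20:30310373-30311889 over its start, called in all 22 lines. It ran from 25.4 CPM in OCIMY5 through a median of 62.4 to 100.9 in U266, and the other 20 lines lay between 44.9 and 77.3 CPM. Its SD of log2(CPM + 1), 0.38, was the smallest of the 10 promoters and below that of 94.7% of the regions in its group by mean CPM. OCIMY5 and U266 were also the lowest and the highest line for the 59 neighbouring regions, with neighbour ratios of 0.603 and 1.39. A further 9 regions inside the BCL2L1 gene body carried the start of another gene in the authors' annotation and are not counted here.

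BCL2, the target of venetoclax, had 8 regions in 2 groups, around its canonical start and around an internal start annotated in the large intron. The annotation gave another 32 regions in the gene body to other starts. At the canonical start, chr18:60987333-60988422, the level ran from 7.74 CPM in KMS20 through a median of 26.0 to 147.1 in KMS12PE. OCIMY5 (62.5 CPM), Karpas620 (56.9), KMS12BM (54.7) and KMS18 (54.4) came after KMS12PE, all far below it. At the internal start, chr18:60828205-60829436, the level ran from 2.61 CPM in OPM2 through a median of 59.3 to 216.5 in KMS12PE, with 132.8 in H1112 as the next highest. The internal start region was singled out after its values were seen. A distal intronic region 3.67 kb downstream of the internal start, chr18:60824785-60825430, was the tallest and the most variable distal region of BCL2. It ran from 0 CPM in OPM2 through a median of 25.1 to 136.4 in KMS12PE. Its SD of log2(CPM + 1) was 1.78, above that of 95.3% of regions of similar mean.

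KMS12PE was the highest line in 7 of the 8 BCL2 regions, the exception being a region 13.4 kb upstream of the internal start, where OCIMY5 was highest with 13.9 CPM against 7.63 in KMS12PE. Its sister line KMS12BM did not share this height. At the internal start KMS12PE had 216.5 CPM and KMS12BM 40.0 (a ratio of 5.42), and at the canonical start 147.1 (95% interval 135.6 to 159.6) and 54.7 (47.8 to 62.7), a ratio of 2.69. Regions of other genes within 2 Mb did not show this difference, with neighbour ratios of 0.625 in KMS12PE and 0.666 in KMS12BM. With 1 library per line these ratios have no replicate check.

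OPM2 and PE1 were the lowest lines at the internal start, with KMS34 (17.7 CPM) next, and lay closer to the other lines at the canonical start. OPM2 had 2.61 CPM at the internal start, 0.522 in the region 2.67 kb downstream and 0 in that at 3.67 kb, where its 3-count floor of 1.57 CPM puts it at least 16-fold below the median line. At the canonical start OPM2 had 21.4 CPM, 0.822 times the median line. PE1 had 6.88, 1.25 and 0.625 CPM at the same internal regions and 12.5 CPM at the canonical start. Other lines were as low downstream of the internal start. In the region at 2.67 kb, Karpas620 had the lowest level with 0.347 CPM and XG-6 had 1.25. Karpas620 and OPM2 had 1 count each there and PE1 and XG-6 had 2, all below 3 counts. The order of Karpas620 and OPM2 thus reflects library depth. In the region at 3.67 kb Karpas620 had 1.74 CPM. Karpas620 nevertheless had 29.1 CPM at the internal start and 56.9 at the canonical start. The OPM2 and PE1 neighbour ratios were 0.964 and 1.17. Across the 22 lines the internal start went with the regions 2.67 and 3.67 kb downstream of it (Spearman 0.77 and 0.69) more closely than with the canonical start (0.32). These are descriptions over 22 points with shared library totals.

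**Figure D2:**
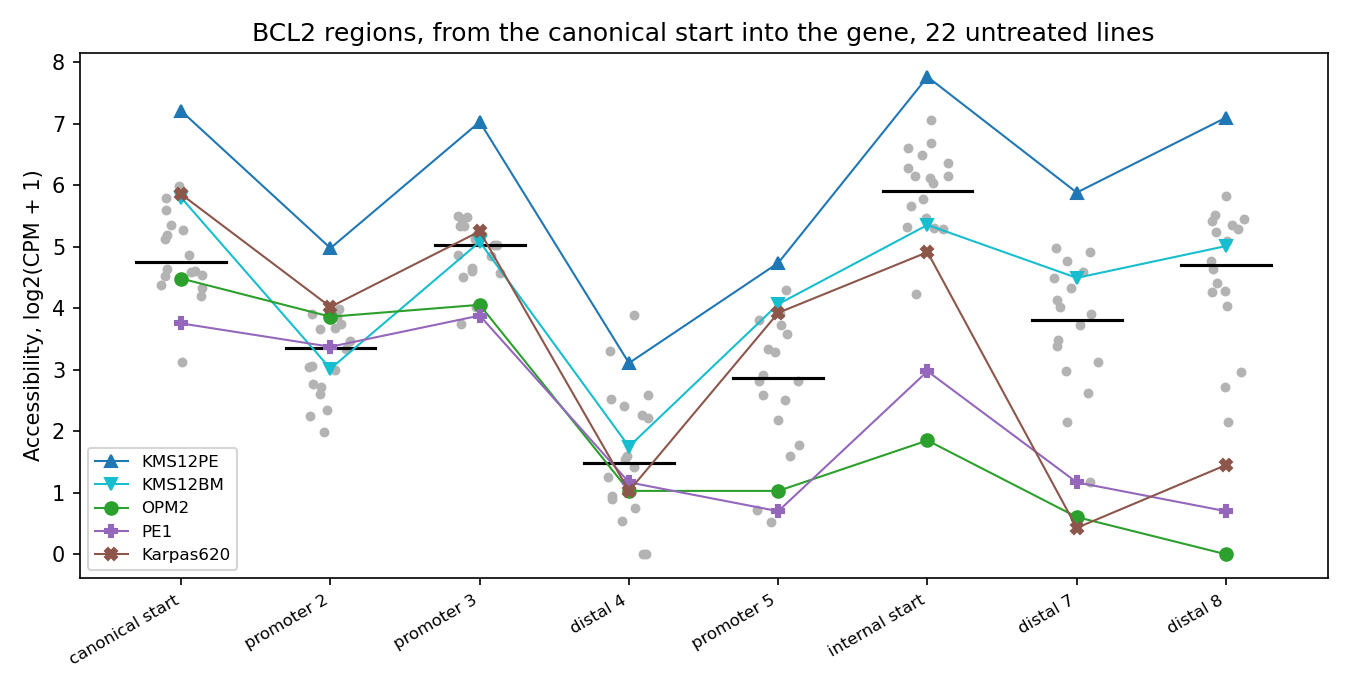
Accessibility of the 8 BCL2 regions, ordered from the canonical start into the gene, as log2(CPM + 1) on the vertical axis in 22 untreated lines, with black bars at the medians. KMS12PE is the highest line in all but distal 4. OPM2 and PE1 are the lowest lines at the internal start and at distal 8. Karpas620 is the lowest at distal 7, on 1 count, as many as OPM2 had there.

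A pair of BCL2 pieces is shown because the groups varied apart: 300 bases before the canonical start (chr18:60987362-60987661, minus strand) and the central 300 bases of the distal intronic region (chr18:60824958-60825257, minus strand). They were read from GRCh37 5′ to 3′ on the strand of the gene. Capitals mark GC boxes (GGGCGG, either strand) in the first and the core GGGAA, which Ikaros factors recognise, on either strand in the second.
BCL2 canonical start, upstream: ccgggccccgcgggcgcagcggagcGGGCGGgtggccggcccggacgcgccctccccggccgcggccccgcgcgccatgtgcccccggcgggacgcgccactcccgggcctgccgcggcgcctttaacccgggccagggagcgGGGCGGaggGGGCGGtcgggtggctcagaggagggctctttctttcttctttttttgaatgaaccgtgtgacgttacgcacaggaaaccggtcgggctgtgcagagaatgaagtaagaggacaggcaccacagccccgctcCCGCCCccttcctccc
BCL2 intronic region: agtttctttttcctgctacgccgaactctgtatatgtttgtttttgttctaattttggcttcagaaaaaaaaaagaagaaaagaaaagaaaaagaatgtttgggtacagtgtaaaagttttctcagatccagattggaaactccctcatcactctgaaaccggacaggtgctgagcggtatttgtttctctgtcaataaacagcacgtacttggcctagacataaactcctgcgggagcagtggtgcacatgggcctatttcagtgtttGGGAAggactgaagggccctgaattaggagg
Before the canonical start there were 4 GC boxes, and the intronic piece held 1 GGGAA core and 1 tandem IRF motif, a pair of GAAA elements. In central windows of 300 bases, GGGCGG stood in 34.6% of all promoter regions and 7.49% of all distal regions. GGGAA stood in 54.4% of distal windows and the tandem IRF motif in 10.7%. A match is a match of letters and not a measured binding site.

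BCL2A1, an NF-kB target that protects lymphocytes, was closed in most lines. Its promoter, chr15:80263314-80263927, was called in 4 of 22 lines and had a median of 1.08 CPM. RPMI8226 (10.9 CPM) and PCM6 (10.7) stood above the others, of which the highest was Karpas620 with 4.86, and KMS28 had no count. A region 5.96 kb upstream of its assigned start was highest in RPMI8226 too, with 15.1 CPM against 5.11 in the next line.

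BCL2L11 encodes BIM, the BH3-only protein that binds every guardian. It had 8 regions, all within or next to its gene on chromosome 2, and 2 lines had almost no counts in any of them. KMS26 had 0 counts and LP1 1 count over the 8 regions together, whereas the other 20 lines had between 84 counts in PE1 and 559 in H1112. At the main promoter, chr2:111877822-111878738, the other 20 lines ran from 15.6 CPM in KMS11 through a median of 31.5 to 69.4 in L363. With floors of 3 counts, KMS26 lay at least 17.2-fold and LP1 at least 24.2-fold below that median. Of the 17656 regions of the table with a median of at least 10 CPM, 888 (5.03%) had 0 counts in some untreated line, and single lines such as KMS26 and LP1 had 0 counts in 0.272% and 0.170% of them. The absence of counts went past the gene. In KMS26 the run of adjacent regions, whatever their median, with at most 1 count each spanned 190 kb (chr2:111807525-111997175), in which 11 regions with a median of at least 2 CPM had 0 counts where the median line would give 171 at this depth. In LP1 it spanned 108 kb (chr2:111807525-111915838), with 2 counts in 9 such regions where 193 would be given. Both runs were ended at regions with a median of at least 2 CPM, so their ends are known only to the spacing of such regions. The next such region before the run, chr2:111630015-111630643, also had 0 counts in LP1 where 5.87 would be given, but 3 of the 6 regions of lower median between it and the run had more than 1 count in LP1, up to 9. Both runs took in regions assigned to the neighbours ACOXL and AC096670.3, and that of KMS26 also regions of MIR4435-1HG. At 88.2 kb past the BCL2L11 start, LP1 was back at 46 counts, while KMS26 was still at 0. Whether the sequence is present in these lines was not tested.

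**Figure D3:**
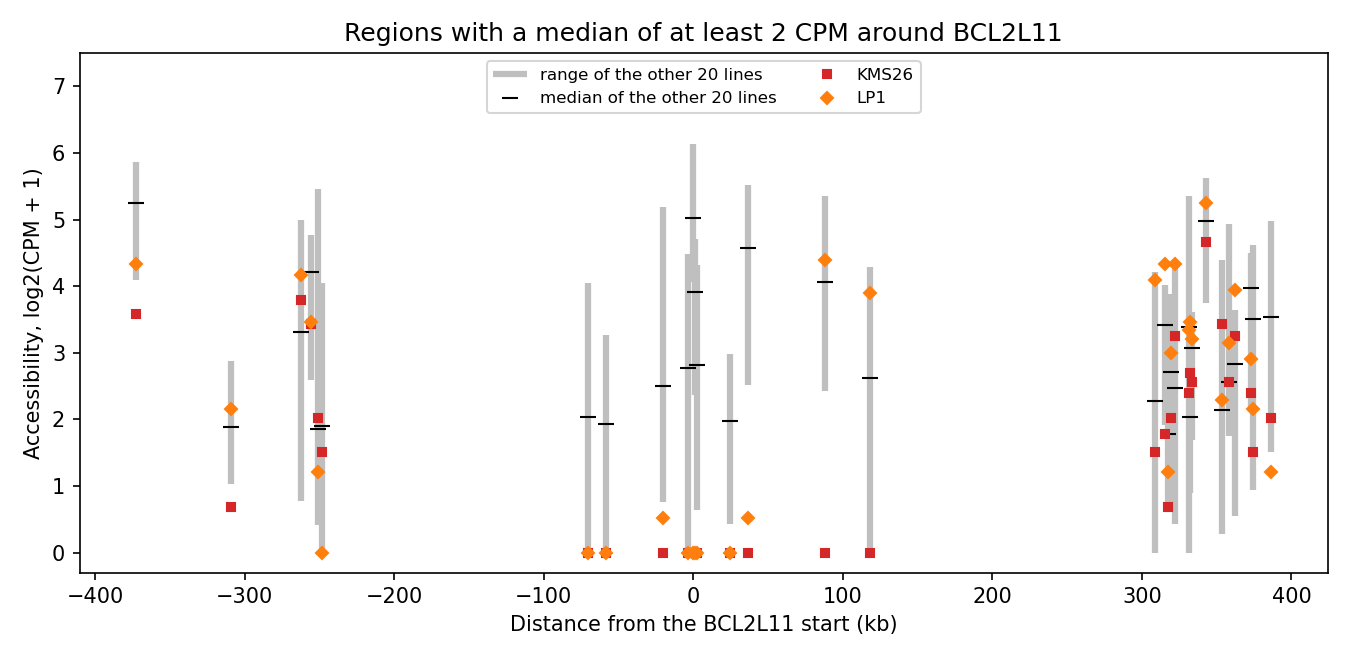
Regions with a median of at least 2 CPM around BCL2L11, with the distance from its start in kb on the horizontal axis and log2(CPM + 1) on the vertical axis. Grey bars and black ticks give the range and median of the other 20 lines, and KMS26 (red) and LP1 (orange) lie at or near 0 over BCL2L11 and have counts again on either side, where KMS26 is below the range of the other lines in 4 of 21 regions and LP1 in 1 of 23.

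The remaining 20 lines varied more at the distal BCL2L11 region than at the promoter. Without KMS26 and LP1, the SD of log2(CPM + 1) fell from 1.62 to 0.68 at the promoter and from 1.53 to 1.02 at an intronic region 33.3 kb downstream of its assigned start and 35.9 kb past the main promoter region (chr2:111914628-111915838). In the 20 lines this distal region ran from 4.72 CPM in KMS27 through a median of 22.7 to 45.0 in KMS12PE. KMS18 (5.05 CPM) and Karpas620 (6.24) were also low there although their promoters were among the most open, with 65.6 and 65.9 CPM. The central 300 bases of the distal region (chr2:111915084-111915383, plus strand, GRCh37) are shown because it separated the lines and is described again under lenalidomide, with the GGGAA core on either strand in capitals.
BCL2L11 distal region: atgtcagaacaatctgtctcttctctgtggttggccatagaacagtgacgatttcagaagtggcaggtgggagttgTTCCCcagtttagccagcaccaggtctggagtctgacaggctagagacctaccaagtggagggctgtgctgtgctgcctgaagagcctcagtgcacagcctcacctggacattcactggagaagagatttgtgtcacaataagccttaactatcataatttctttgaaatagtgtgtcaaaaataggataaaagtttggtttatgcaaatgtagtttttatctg
It held 1 GGGAA core and 1 RUNX core (ACCACA), which stood in 33.3% of all distal windows.

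BMF, the BH3-only protein released from the cytoskeleton, had the smallest promoter SD of the BH3-only genes when levels were scaled by library totals. Its promoter, chr15:40400986-40401707, was called in all 22 lines and ran from 17.2 CPM in PCM6 through a median of 34.7 to 60.7 in L363. Its SD of log2(CPM + 1) was 0.44, below that of 86.9% of regions of similar mean. With CPM divided by the median of the non-member regions within 5 Mb the SD became 0.73, above that of BBC3 (0.69), and over the 6 untreated lines of the lenalidomide pairs PMAIP1 had a smaller SD (0.27 against 0.31). The intronic region 6.70 kb downstream of its assigned start and 9.40 kb from the main promoter region (chr15:40390637-40391584), the tallest and most variable distal region, ran from 9.76 to 39.6 CPM and was called in 21 lines. A region 0.870 kb downstream of a BMF start had a mean of 11.3 CPM yet was called in no untreated line, so a level above 10 CPM did not always come with a call.

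PMAIP1 encodes NOXA, which neutralises MCL1. Its promoter, chr18:57566702-57568324, ran from 8.42 CPM in KMS12BM through a median of 74.0 to 106.4 in KMS26 and was called in 21 lines. OCIMY5 (27.1 CPM) and U266 (31.4) were the next lowest. KMS12BM had 32 counts there (8.42 CPM, 95% interval 5.96 to 11.9) and its sister KMS12PE 208 (52.9 CPM, 46.2 to 60.6). Neighbouring regions went the other way, with a neighbour ratio of 0.838 in KMS12BM and 0.348 in KMS12PE, the lowest of all lines. Relative to these neighbours the PMAIP1 promoter of KMS12PE was 15.2 times as open as that of KMS12BM. Over all 51 regions the mean absolute difference of log2(CPM + 1) between the sisters was 0.84, rank 64 of 231 pairs of lines from the most alike. Over 41640 regions with a mean of at least 5 CPM it was 0.92, rank 13.

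The 8 distal PMAIP1 regions followed the promoter weakly, with Spearman correlations from -0.32 to 0.31 over the 22 lines. The tallest lay 23.3 kb upstream (chr18:57543047-57543854) and ran from 2.04 CPM in L363 to 36.3 in H1112. The most variable lay 37.2 kb upstream (chr18:57529271-57529940), where Karpas620 had 39.6 CPM and the next line, U266, 13.9. A region 17.4 kb upstream (chr18:57548818-57549821) was called in 9 lines and ran from 1.69 CPM in KMS27 through a median of 7.61 to 31.3 in LP1.

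BBC3 encodes PUMA, a BH3-only target of p53. The region taken as its main promoter, chr19:47730351-47731376, was the only BBC3 region that overlapped a start. Other annotated starts of the gene lay farther upstream. This promoter region had a median of 18.2 CPM, from 6.04 in PCM6 to 40.3 in L363, and was called in 8 lines. A region 11.3 kb upstream of its assigned start and 15.9 kb from this promoter region (chr19:47747294-47747943) was called in all 22 lines, with a median of 16.5 CPM. Per kb its median was 25.4 CPM, against 17.7 at the promoter region. The most variable distal region lay within the SAE1 gene, 20.9 kb downstream of its assigned start and 25.5 kb from this promoter region. It had a median of 0.970 CPM and reached 12.1 in PCM6, the line with the least open main promoter. The other BBC3 promoter region (chr19:47734611-47734834), 0.159 kb upstream of another start, was called in 4 lines and had a median of 6.31 CPM. PCM6 was above that median with 8.83 CPM, and PE1 was lowest with 0.625.

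The main promoters of the pore formers were each called in 19 lines. Their mean CPM, not taken per kb, stood at percentile 69.9 (BAX) and 73.6 (BAK1) of all promoter regions. BAX, with a single region at chr19:49457758-49458598, ran from 3.82 CPM in KMS12PE through a median of 10.8 to 26.0 in KMS28. The BAK1 promoter, chr6:33547722-33548332, ran from 6.26 CPM in OPM2 through a median of 14.7 to 26.5 in LP1. The BAK1 region 8.53 kb downstream (chr6:33538507-33539449) was more open than the promoter, with a median of 35.9 CPM and a range from 26.1 in MM1S to 63.8 in LP1. Its SD of log2(CPM + 1), 0.37, was below that of 95.9% of regions of similar mean.

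By the sum of all regions of a gene over the 22 lines, the gene on another chromosome most like each member had a Spearman correlation between 0.71 and 0.83. The closest matches were C7orf31 for BCL2L1 (0.83), LEP for BCL2A1 (0.81), and KCTD6 for BCL2L11 (0.75). Between 19231 and 20984 genes were compared for each member, and nothing is drawn from the matches.

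Lenalidomide was compared with no treatment within the 6 lines to ask which BCL2 family regions changed. The 2 regions that changed both belonged to PMAIP1 and both rose. Of the 51 regions, 30 had enough counts for the test, and 2 of these 30 had an adjusted p below 0.05 by edgeR's quasi-likelihood test with the line as a block. Among all regions tested, 5.4% were called in either direction and 4.17% as higher, so the share among the members (2 of 30) was near the background. The median log2 fold change of the 30 regions was 0.02, against -0.01 over all regions tested, with 16 above and 14 below 0.

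At the region 17.4 kb upstream of PMAIP1, accessibility went from 7.29 to 14.5 CPM in Karpas620, from 1.69 to 5.13 in KMS27, from 2.06 to 5.44 in MM1S, from 12.5 to 33.0 in OPM2 and from 2.36 to 7.06 in RPMI8226. In L363 it went from 3.06 to 2.31 CPM, on 6 and 5 counts. Thus 5 of 6 lines were higher, while the ranges of the 2 groups overlapped, since untreated OPM2 was above 4 of the treated lines. In RPMI8226 the lenalidomide library was 2.01 times as deep as the untreated one, and the counts behind its values were 5 and 30. The log2 fold change was 1.20 (SE 0.26, edgeR adjusted p = 0.00314). It kept an adjusted p between 0.00188 and 0.0392 when any 1 line was left out and of 0.0303 with DESeq2.

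At the PMAIP1 promoter the level went from 80.5 to 99.8 CPM in Karpas620, from 89.4 to 101.9 in KMS27, from 57.6 to 77.0 in L363, from 64.9 to 69.0 in MM1S, from 79.8 to 114.4 in OPM2 and from 56.7 to 62.9 in RPMI8226. All 6 lines were higher, by little. The log2 fold change was 0.28 (SE 0.09, edgeR adjusted p = 0.0413). The adjusted p rose to between 0.0545 and 0.200 without Karpas620, KMS27, L363, MM1S or OPM2 and was 0.0291 without RPMI8226, and DESeq2 gave 0.246. The other PMAIP1 regions tested, 23.3 and 13.8 kb upstream, had log2 fold changes of -0.25 (SE 0.25) and -0.07 (SE 0.27). Within 1 Mb of the promoter 26 regions were tested, the PMAIP1 regions included, and 5 (19.2%) were called, 4 of them higher, against 5.4% of all regions, with a median log2 fold change of -0.08.

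**Figure D4:**
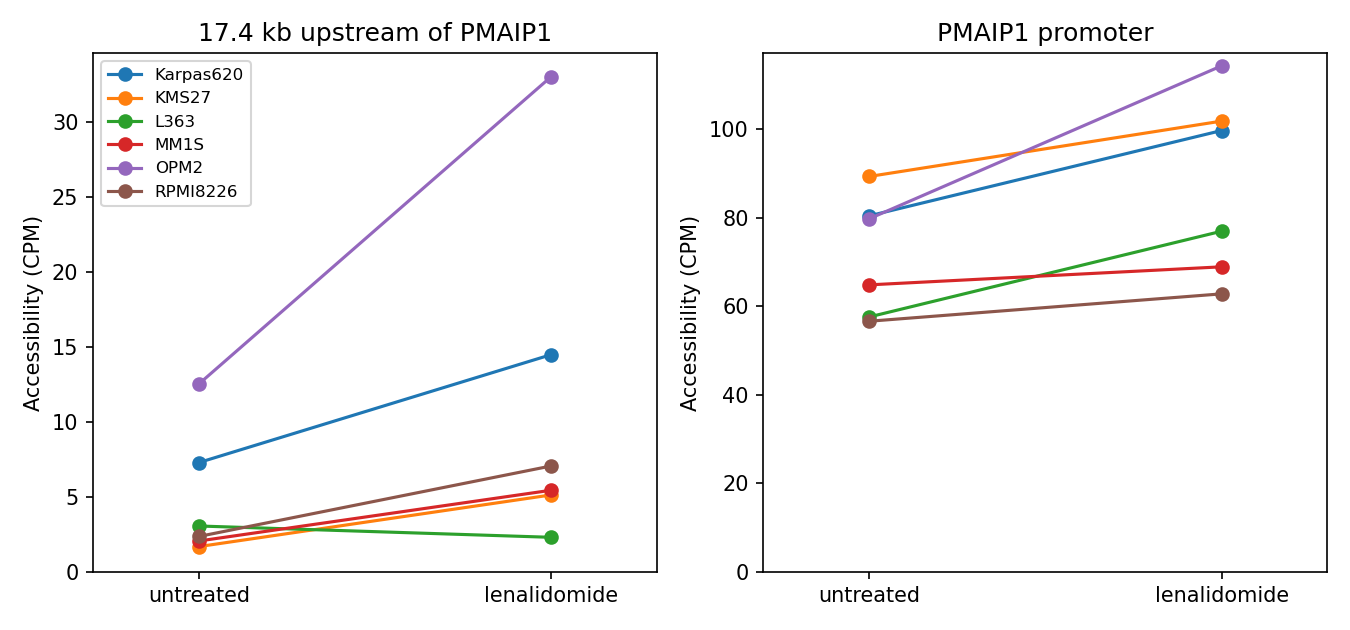
Accessibility in CPM at the region 17.4 kb upstream of PMAIP1 (left) and at its promoter (right) in the 6 lines without and with lenalidomide, with 1 line joining the values of each cell line. All lines rise at the promoter and all but L363 rise at the upstream region, from different starting levels.

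A piece of each called PMAIP1 region is shown: the central 300 bases of the upstream region (chr18:57549170-57549469) and 300 bases before the start (chr18:57566880-57567179), both on the plus strand of GRCh37. The lenalidomide change was measured over the whole regions, of 1004 and 1623 bases, and not in these pieces. The rest of the upstream region was not searched for motifs. Capitals mark GC boxes on either strand in the second, and the first has no GGGAA on either strand to mark.
PMAIP1 upstream region: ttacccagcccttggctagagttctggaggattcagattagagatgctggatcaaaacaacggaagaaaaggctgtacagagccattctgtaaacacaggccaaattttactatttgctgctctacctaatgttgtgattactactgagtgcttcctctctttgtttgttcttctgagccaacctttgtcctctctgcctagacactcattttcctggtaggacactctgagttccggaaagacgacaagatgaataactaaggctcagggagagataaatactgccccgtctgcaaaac
PMAIP1 promoter: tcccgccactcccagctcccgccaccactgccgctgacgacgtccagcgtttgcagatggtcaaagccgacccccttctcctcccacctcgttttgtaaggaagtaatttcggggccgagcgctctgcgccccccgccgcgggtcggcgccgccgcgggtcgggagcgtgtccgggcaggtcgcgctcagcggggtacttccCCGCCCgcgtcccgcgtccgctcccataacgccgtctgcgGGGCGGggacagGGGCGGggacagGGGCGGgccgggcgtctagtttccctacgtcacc
The upstream piece held none of the motifs searched, which were, on both strands, GGGAA, the GC box, the AP-1 motif TGANTCA, the E-box with the letters CACGTG, the RUNX core, the tandem IRF motif and the p53 decamer. The promoter piece held 4 GC boxes and 2 GGGAA cores and had a GC content of 72.0%. Over all 51 regions, GGGAA stood in 58.8% of central windows, against 56.1% of all regions.

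No other member region passed the threshold. On simulated counts the fit called 100 of 200 regions changed 2-fold, so changes of that size can go uncalled. At an unadjusted p below 0.05, 9 of the 30 regions stood out by edgeR, 6 higher and 3 lower, against 17.3% of all regions tested. The count was 4 with DESeq2 and between 3 and 9 with a line left out. The largest lower value was at the BCL2L11 region 33.3 kb downstream, which was lower in 6 of 6 lines. It went from 6.24 to 3.91 CPM in Karpas620, from 4.72 to 1.37 in KMS27, from 31.6 to 25.8 in L363, from 35.7 to 33.8 in MM1S, from 27.7 to 5.43 in OPM2 and from 8.03 to 7.77 in RPMI8226. Its log2 fold change was -0.63 (SE 0.23, edgeR adjusted p = 0.115), so it did not pass the correction. The BCL2L11 main promoter had -0.23 (SE 0.11, edgeR adjusted p = 0.255) and was lower in 4 of 6 lines. A BCL2L11 region 0.258 kb downstream of a second start had the opposite sign, 0.53 (SE 0.22, edgeR adjusted p = 0.167). BMF had 0.32 (SE 0.15, edgeR adjusted p = 0.252) at the region 6.70 kb downstream. It had 0.52 (SE 0.22, edgeR adjusted p = 0.186) at a region 0.007 kb upstream of a BMF start. The BBC3 main promoter had 0.39 (SE 0.17, adjusted p = 0.219, edgeR) and the BCL2 canonical start -0.28 (SE 0.13, adjusted p = 0.244, edgeR). At the other BBC3 promoter region, 3.24 kb upstream of the main one, the value was 0.16 (SE 0.245). MCL1 (-0.04, SE 0.10) and BCL2L1 (-0.05, SE 0.11) had the smallest changes, whatever the sign, of the 9 main promoters tested.

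**Figure D5:**
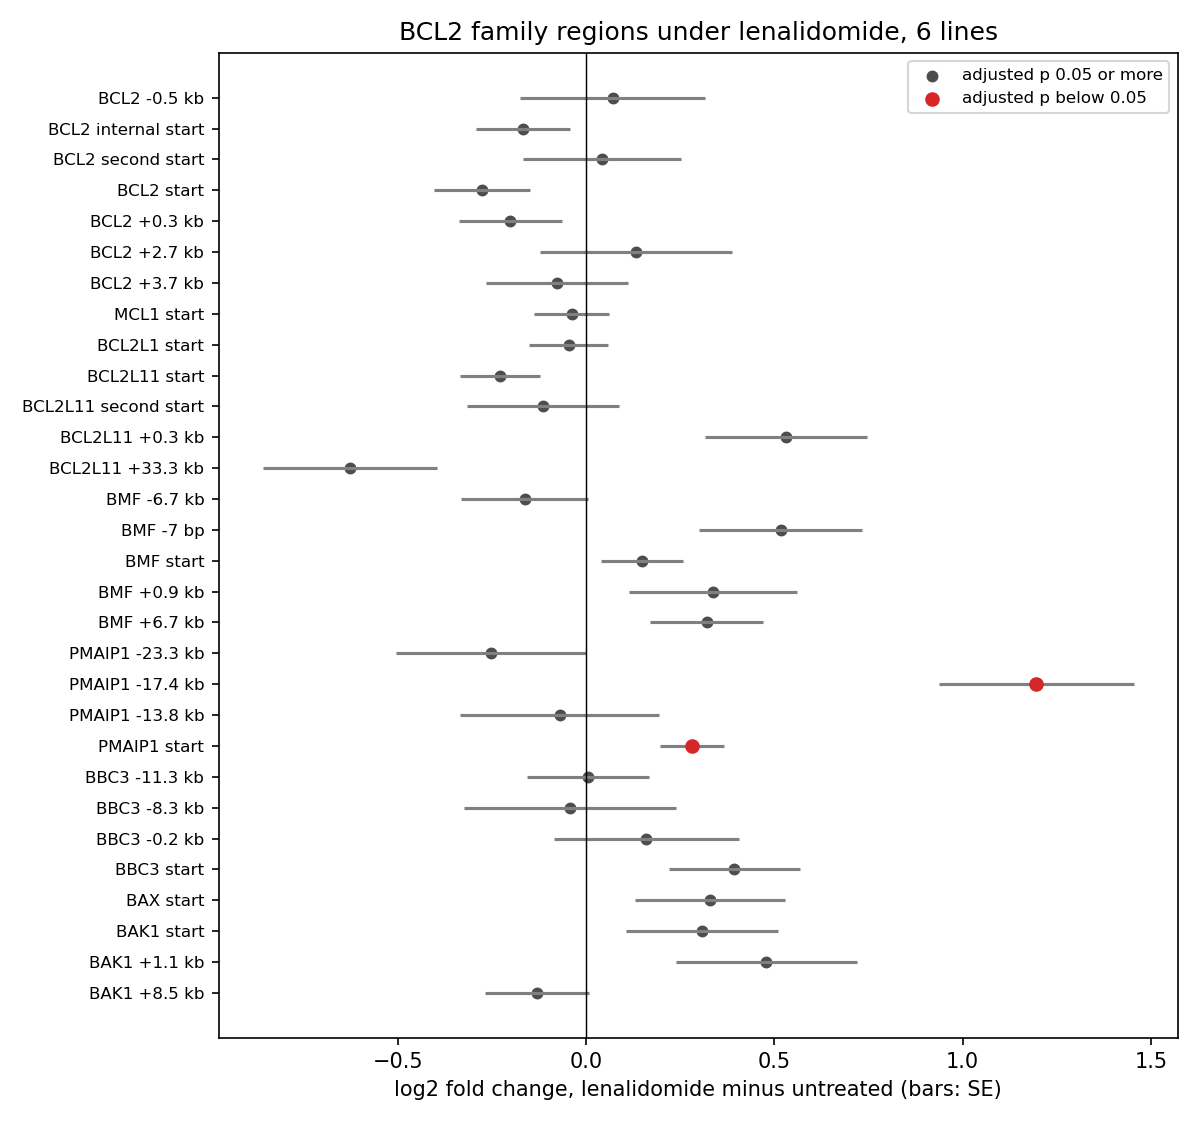
The log2 fold change of lenalidomide minus untreated on the horizontal axis for the 30 tested regions, with bars of 1 SE from edgeR and rows named by gene and distance from the assigned start. The 2 PMAIP1 regions in red, at 1.20 and 0.28, are those with an adjusted p below 0.05.

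With all regions of a gene summed, PMAIP1 was the only 1 of 9 testable members called, with a log2 fold change of 0.30 (SE 0.08, edgeR adjusted p = 0.0275) and higher sums in 6 of 6 lines. Of all genes tested this way 2.13% were called. The call was lost without Karpas620, KMS27, L363 or OPM2 (adjusted p between 0.0588 and 0.0964) and with DESeq2 (0.0792). BMF had a sum change of 0.18 (SE 0.08, edgeR adjusted p = 0.310) and BCL2L11 of -0.18 (SE 0.10, edgeR adjusted p = 0.399). The BCL2 sum was lower in 6 of 6 lines, by little, with -0.145 (SE 0.073, edgeR adjusted p = 0.377). BCL2A1 had too few counts for the test.

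The other genes of the pathway showed no call. On simulated counts the fit called 132 of 200 gene sums changed 2-fold, so changes of that size can go uncalled. Of 13 further BCL2 family genes, 12 had regions and 9 could be tested, with 0 called by edgeR or DESeq2, 0 at an unadjusted p below 0.05 by either and a median log2 fold change of 0.04. Of 25 genes of the death machinery (caspases, their inhibitors, death receptors and mitochondrial factors), 22 could be tested, with 0 called by edgeR or DESeq2 and 2 at an unadjusted p below 0.05 by edgeR (1 by DESeq2), against 14.1% of all summed genes at that p by edgeR. The 2 by edgeR were FADD, an adaptor of death receptors (-0.35, SE 0.13, edgeR adjusted p = 0.193), and CYCS, which encodes cytochrome c (-0.16, SE 0.08, edgeR adjusted p = 0.327). The start regions of 18 of these 22 genes were called in 20 or more untreated lines, against 5 of the 10 members, with BCL2 counted by its internal start. This contrast depends on the cut, as BCL2L11, BAX and BAK1 were each called in 19 lines. The share of all genes at this cut was not computed, so nothing is drawn from it. In all 22 lines, 9 of the 22 genes and 3 of the 10 members were called, each gene counted by 1 start region. Counted over all their promoter regions, the members stood at 15%, near the 13.4% of all promoter regions of the table.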

How the data were processed

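The authors aligned ATAC-seq reads to GRCh37 with Bowtie2 2.2.6, marked duplicates with SAMtools 1.7 and called peaks per library with MACS2 2.1.0.20151222, as named in the submitters' processing notes and the study's methods. They merged the peaks into 154985 autosomal regions and deposited raw counts per region and library. Removal of duplicates, the transposase shift and whether reads or fragments were counted are not given in the sources used here. The RPM values deposited by the authors equal the counts divided by the library total and were used only as a check. From another deposited table, of whole numbers that its file does not define, a value of at least 1 was taken to mean a peak of that library in the region.

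Samples were grouped by the treatment given in the labels. Counts over regions were compared in the 12 libraries of 6 lines with edgeR 4.0.16 in R 4.3.3. The settings were TMM, filterByExpr, the quasi-likelihood test, cell line as a block and Benjamini-Hochberg adjusted p below 0.05 over all regions. DESeq2 1.42.0 was the alternative. The fit was also run on simulated counts. There it called 100 of 200 regions and 132 of 200 gene sums changed 2-fold, with 4 and 2 false calls. For gene sums, counts were added over the regions of each start. Levels over the 22 untreated lines have no test, since each line was assayed once. The neighbour ratio is the median, over non-member regions within 2 Mb with a mean of at least 5 CPM, of the line's CPM over the median CPM of the 22 lines. It was added after seeing the data.

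For each gene the text names the main promoter, the tallest distal region, the most variable distal region called in at least 3 lines, and every region past the threshold. Annotated starts that no region overlapped were passed over in the choice of the main promoter. The gene list, the members and the other lists were chosen with earlier results of these data known. GENCODE lifted to GRCh37 was used to keep printed sequence outside annotated exons. Alternatives were other normalization, filters, designs, pseudocounts, scalings and each line left out.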

Additional observations from a re-analysis of the deposited data

Results flagged for a closer look

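Of 30 sets of 6 values (promoter CPM without and with lenalidomide, and the log2 change, for each of the 10 genes), 1 had a line far from the others. With lenalidomide, RPMI8226 had 15.3 CPM at the BCL2A1 promoter and the next line, Karpas620, had 4.30, a gap of 0.741 of the whole range against a critical value of 0.625. RPMI8226 was also the highest untreated line there, with 10.9 CPM. Chance finds about 1 such line in 20 sets.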

How the results depend on the processing

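Among the member regions, 2 were called by edgeR with the line as a block. The count was 1 with DESeq2 (the upstream PMAIP1 region), 1 with at least 10 counts in each library (the promoter, since the upstream region did not pass that filter), between 1 and 2 when a line was left out, and 0 without the cell line term, where 0 of 30 had an unadjusted p below 0.05 by edgeR. For summed genes the count of 1 became 0 with DESeq2 (1 at an unadjusted p below 0.05), 0 with distal regions only (2 at an unadjusted p below 0.05 by edgeR), 0 without the cell line term (0 at an unadjusted p below 0.05) and between 0 and 1 when a line was left out. Library totals in place of TMM and no filter on low counts left both counts as they were. All 34 values of the PMAIP1 log2 changes under these alternatives were positive. They reuse the same libraries for results picked because they were called higher, so their shared sign is no further evidence. Over the whole table, 2036 regions became 834 with DESeq2, 587 with at least 10 counts, 4092 with no filter, 0 without the cell line term (440 at an unadjusted p below 0.05 by edgeR) and between 1067 and 2503 without a line, and 578 genes became 275 with DESeq2, 344 with at least 10 counts, 916 with no filter, 0 without the cell line term (156 at an unadjusted p below 0.05) and between 331 and 797 without a line. The count of 14 distal regions called in 3 or more lines became 25 with 2 CPM in place of a call and 9 with distal set at 10 kb. The median SD of the 10 promoters, 0.57, stayed within 1 SD of the members under every scaling, pseudocount and left-out line tried, and 33 of 40 single-gene values stayed within 1.5 times. At BCL2L11 the value of 1.62 became 2.54 with a pseudocount of 0.1, since it rests on KMS26 and LP1. The lines share no replicate numbers in the labels, and the cell line is the block of the reported fit. At the depths here, 3 counts correspond to 1.83 CPM in KMS26, so that levels of BCL2A1 and other closed regions were near the limit of detection.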

Other observations

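A pair of death inhibitors outside the family, BIRC2 and BIRC3, which encode cIAP1 and cIAP2 and lie side by side on chromosome 11, also had lines with almost no counts. Summed over its 4 regions, BIRC3 had 0 counts in KMS20 and 2 in KMS18, whereas the third lowest line, KMS28, had 45 and the median line had 80.3 CPM. At the BIRC2 start region (chr11:102217302-102218820) both KMS20 and KMS18 had 0 counts, while its other regions brought each of these lines to 26 counts. The third lowest line for BIRC2, U266, had 197 counts. These lines were not the lines without counts at BCL2L11, and the genes were singled out after their values were seen.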
